A study of Mus musculus with 18 samples.

Results

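The 10 genes described here encode the 7 inhibitors of cyclin-dependent kinases and the 3 D-type cyclins of the mouse, of 20661 autosomal protein-coding genes in the gene table used. They were chosen by name, and their H3K27me3 was read from every deposited interval that overlapped the gene body or the 2500 bp on either side of it, called the gene window below. INK4 proteins (Cdkn2a to Cdkn2d) bind the kinases CDK4 and CDK6, and CIP/KIP proteins (Cdkn1a to Cdkn1c) bind cyclin-kinase complexes more broadly. D-type cyclins (Ccnd1 to Ccnd3) activate CDK4 and CDK6, which phosphorylate the retinoblastoma protein and so promote entry into S phase. H3K27me3, trimethylated lysine 27 of histone H3, is placed by Polycomb repressive complex 2 and is found at silenced genes. The Cdkn2a and Cdkn2b locus is a textbook target of this complex, and Cdkn1c is an imprinted gene.

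The mark was profiled by CUT&Tag, in which an antibody tethers a transposase that tags nearby DNA, on bulk nuclei of the medial ganglionic eminence (MGE), a progenitor zone of the ventral forebrain that gives rise to interneurons. The WT and KO groups held 3 libraries each at the embryonic ages E12.5 and E15.5, or 12 libraries in all, and the 6 heterozygous samples were not analysed here. All embryos carried Nkx2.1-CreC/+ and Ai9F/+, a Cre-dependent tdTomato reporter, by the cross in the labels, the WT libraries are titled WT, and the KO libraries Nkx2.1-CreC/+;Ezh2;Ai9F/+. Ezh2 encodes a methyltransferase of Polycomb repressive complex 2. Cre acts only in the Nkx2-1 lineage, so cells of other lineages in the dissected tissue keep Ezh2, and MGEs of embryos of 1 genotype were combined where needed. At E12.5 the whole MGE was taken, and at E15.5 only the tdTomato-positive MGE, so stage and dissection cannot be told apart. In bulk nuclei, a mark on fewer cells and less of the mark in each cell cannot be told apart either.

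Each library has its own list, with 5008 to 13289 intervals and a depth, recovered from the deposited scores, of 0.0751 to 0.698 counts per window of 200 bp. The E15.5 WT libraries (0.0751 to 0.150) were shallower than all E15.5 KO libraries (0.179 to 0.346), and at E12.5 the WT libraries (0.117, 0.698 and 0.481) spanned the KO range of 0.212 to 0.272. As a check of the lists, all 39 Hox genes had an interval in every library. Of 20 housekeeping genes, 0 had an interval in every library and 13 (65.0%) had none in any. Among all autosomal protein-coding genes the shares were 12.1% and 61.2%, so the 65.0% does not set housekeeping genes apart. Expression was not measured in these libraries, so the tissue label was not checked by it. Both endothelial marker genes (Cldn5 and Kdr) had an interval in all 12 libraries, and both microglial marker genes (Csf1r and Cx3cr1) in none. The pan-neuronal genes Tubb3 and Stmn2 had an interval in 11 and 9 libraries. Of the pallium markers, Emx1 and Tbr1 had an interval in 12 libraries and Neurod6 in 6. The markers of the lateral ganglionic eminence and striatum, Gsx2, Isl1 and Ebf1, had an interval in 12. The labels number biological replicates but do not say how many animals each holds, and p-values measure the spread between these libraries.

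The mark was present at 7 of the 10 genes in all 12 libraries: Cdkn2a, Cdkn2b, Cdkn2c, Cdkn1a, Cdkn1c, Ccnd1 and Ccnd2. Across all autosomal protein-coding genes, 12.1% (2491 genes) had an interval in all 12 libraries and 61.2% had none in any. Cdkn2d had an interval in 10 libraries, Ccnd3 in 2, and Cdkn1b in none. Each library marked 7 to 9 of the 10 genes, and 15.9% to 31.5% of all autosomal protein-coding genes. The mean was 8.33 ± 0.58 genes (SD, n = 3) for WT and 7.67 ± 0.58 for KO libraries at E12.5. At E15.5 it was 7.67 ± 0.58 for WT and 8.33 ± 0.58 for KO, and the ranges of the groups overlapped. Absence from a list means only that no interval passed the authors' threshold, which is not given in the sources used here.

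**Figure D1:**
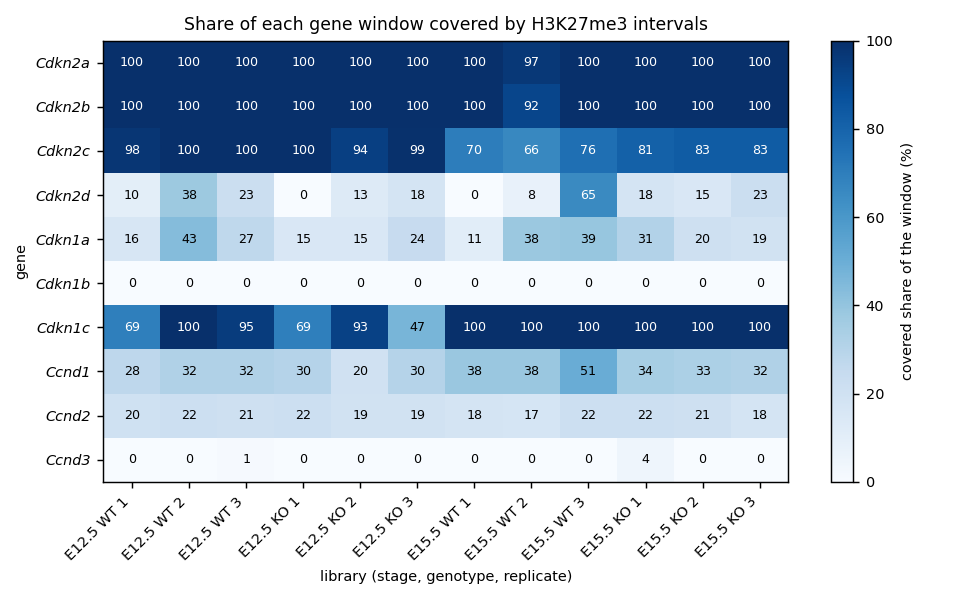
Share of each gene window (gene body with 2500 bp on either side, in percent) that deposited intervals cover, for 10 genes (rows) and 12 libraries (columns). Cdkn2a and Cdkn2b are covered to 91.8% or more in every library, Cdkn1b is at 0 throughout, and Cdkn2c is lower in the 6 E15.5 libraries (66.4% to 82.9%) than in the 6 E12.5 libraries.

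Cdkn2a and Cdkn2b are neighbours on chromosome 4 and lay under a single broad domain, which gaps split in 1 library (E15.5 WT 2). Cdkn2a (chr4:89274473-89294619, minus strand, GRCm38) encodes p16INK4a and, from another first exon and reading frame, p19ARF, which stabilises p53. Cdkn2b (chr4:89306289-89311032, minus strand) encodes p15INK4b. After merging overlapping intervals of all 12 libraries, both genes fell in 1 region (chr4:89264401-89316000) of 51.6 kb, which held no other protein-coding gene. Among the 2368 merged autosomal regions that every library called, it was wider than 95.9% and its 157 normalised counts per covered kb exceeded those of 95.5%. A normalised count is a deposited count divided by the depth of its library and multiplied by the mean depth of all 12. In each library the interval on Cdkn2a held, per 200 bp of its length, 101 to 168 times the counts of the mean window.

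The domain took in both annotated start sites of Cdkn2a, which differ widely in CpG content. Of the 10 genes, 7 had entries in RefSeq's promoter sequences (GRCm38.p6), with 11 start sites in all. The 250 bases before each start of Cdkn2a are shown 5′ to 3′ on the minus strand, with every CpG in capitals, because the same mark covers a start with 40 CpG and one with 7. The first lies at chr4:89294620-89294869, before the outer start, and the second at chr4:89282193-89282442, before the inner start.
Cdkn2a outer start: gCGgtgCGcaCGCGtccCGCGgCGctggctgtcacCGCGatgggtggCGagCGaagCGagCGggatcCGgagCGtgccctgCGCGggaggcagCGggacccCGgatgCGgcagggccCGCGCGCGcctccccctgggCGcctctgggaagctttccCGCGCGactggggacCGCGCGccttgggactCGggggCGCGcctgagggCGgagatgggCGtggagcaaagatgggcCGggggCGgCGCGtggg
Cdkn2a inner start: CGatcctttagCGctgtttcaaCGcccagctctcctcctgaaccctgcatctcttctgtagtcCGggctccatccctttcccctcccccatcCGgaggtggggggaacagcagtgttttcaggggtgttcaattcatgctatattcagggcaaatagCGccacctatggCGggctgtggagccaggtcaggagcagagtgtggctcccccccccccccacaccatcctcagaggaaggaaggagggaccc
Both stretches lay inside an interval in 12 of 12 libraries. As many CpG as the 40 of the outer start occurred in 1.34% of all 31396 promoter stretches, and the median stretch held 6. The outer stretch also held TTTCCCGC, a form of the E2F site, on one of its strands, as did 0.885% of all stretches, and no other stretch of the 10 genes held it. TTTGGCGC, another form of that site, occurred in none of the 11 stretches and in 0.414% of all stretches.

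Counts in the Cdkn2a and Cdkn2b region showed no difference between genotypes past the threshold. At E12.5 the WT libraries held 9435, 7779 and 7966 normalised counts and the KO libraries 7360, 10339 and 8356. At E15.5 WT held 6787, 6777 and 7144, and KO held 6524, 6807 and 5776. WT and KO ranges overlapped at each stage, and every E15.5 library lay below every E12.5 library. The log2 change in KO was 0.05 ± 0.19 (SE) at E12.5, with an adjusted p of 0.839 by edgeR's quasi-likelihood test, and -0.12 ± 0.11 at E15.5, with an adjusted p of 0.670. The covered length was 43.0 to 51.0 kb for the interval on Cdkn2a, and 42.2 kb of the region lay under an interval in all 12 libraries.

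Cdkn2c encodes p18INK4c and lies on the same chromosome (chr4:109660876-109666756, minus strand). Its region (chr4:109647801-109672400, 24.6 kb) was denser than 88.5% of the regions shared by all libraries. Normalised counts were 2191, 1915 and 2011 in E12.5 WT and 1838, 2317 and 2071 in E12.5 KO. They were 806, 946 and 844 in E15.5 WT and 846, 949 and 1066 in E15.5 KO. The genotypes overlapped at both stages, and every E15.5 library lay below every E12.5 library.

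The domain on Cdkn2c was also shorter at E15.5. Intervals in the region covered 16.4 to 24.6 kb in the E12.5 libraries and 10.8 to 14.0 kb in the E15.5 libraries. Bases under an interval in all 6 libraries of a stage came to 15.4 kb at E12.5 and 10.2 kb at E15.5. In all 3 E15.5 WT libraries a gap split the domain inside the gene body, and no E15.5 KO library had that gap. The covered share of the gene window was 70.1%, 66.4% and 75.6% in E15.5 WT and 81.1%, 82.9% and 82.9% in E15.5 KO, which did not overlap. KO was above WT without overlap in 6.13% of the 6444 gene windows with an interval at E15.5. The permutation test of this share over both stages gave an exact two-sided p of 0.1 for Cdkn2c (adjusted p 1.0), and the E15.5 WT libraries are the shallower ones, whose part in the gap was not tested.

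Cdkn2d, which encodes p19INK4d (chr9:21288459-21291421, minus strand), carried intervals of few counts at its start. A separate interval lay at the other end of the gene in 5 of these libraries (E12.5 WT 2, WT 3, KO 2 and KO 3 and E15.5 KO 3), and in E15.5 WT 3 a single interval spanned the gene; the counts and lengths below sum all intervals of the window. The library without an interval was E12.5 KO 1 at E12.5 and E15.5 WT 1 at E15.5, each the shallowest of its group. Deposited counts in the other 10 libraries were 8 to 87, over 0.6 to 5.2 kb. At E12.5 the covered share of the window was 10.0%, 37.7% and 22.6% for WT and 0.0%, 12.6% and 17.6% for KO. At E15.5 it was 0.0%, 7.53% and 65.3% for WT, and 17.6%, 15.1% and 22.6% for KO. E15.5 WT 3, at 65.3%, stood apart from all other libraries, and its interval of 5.2 kb held 26 counts. The 250 bases before the Cdkn2d start (chr9:21291210-21291459, minus strand) held 16 CpG, overlapped an interval in 10 libraries and lay wholly inside it in 9. Because 2 libraries had no interval, the region did not enter the main test. Across the 12 libraries, the covered shares most like that of Cdkn2d were those of Prrc2a (Pearson's r 0.939), Stum (0.931) and Filip1l (0.927). These 3 were picked as the highest correlations, so the values are high by selection. Prrc2a had an interval in 4 libraries, Stum in 12 and Filip1l in 5. The 65.3% of 1 library contributes to the correlations, and libraries differ in depth.

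Among the CIP/KIP inhibitors, the 3 genes differed in their mark from none at Cdkn1b to intervals of up to 17.4 kb at Cdkn1c. Cdkn1b (chr6:134920401-134925525, plus strand), which encodes p27KIP1, had no interval in its window in any library, and the nearest interval lay 44.5 to 1247 kb away. Cdkn1a (chr17:29090979-29100722, plus strand), which encodes the p53 target p21CIP1, had a short interval in every library. Per 200 bp it held 15.1 to 41.2 times the counts of the mean window. Cdkn1c (chr7:143458339-143461059), which encodes p57KIP2, had 3.6 to 17.4 kb intervals, with 4.39 to 35.4 times the counts of the mean window per 200 bp. Of the regions shared by all libraries, the Cdkn1c region was wider than 71.7% and denser than 44.5%. The Cdkn1a region was wider than 17.9% and denser than 60.2%.

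The interval on Cdkn1a lay at the inner of its start sites in every library and reached the outer one in 2. Bases under the mark in all 12 libraries ran from chr17:29093601-29095200, inside the gene body. The 250 bases before the outer start (chr17:29090729-29090978) held 2 CpG and overlapped an interval in 2 of 12 libraries, 1 each of E12.5 WT and E15.5 WT. The 250 bases before the inner start (chr17:29093519-29093768) held 19 CpG, overlapped an interval in all 12 and lay wholly inside it in 11. The stretches are shown with that of Cdkn1b (chr6:134920151-134920400), which held 28 CpG and no interval, all on the plus strand with CpG in capitals, to set marked and unmarked starts side by side.
Cdkn1a outer start: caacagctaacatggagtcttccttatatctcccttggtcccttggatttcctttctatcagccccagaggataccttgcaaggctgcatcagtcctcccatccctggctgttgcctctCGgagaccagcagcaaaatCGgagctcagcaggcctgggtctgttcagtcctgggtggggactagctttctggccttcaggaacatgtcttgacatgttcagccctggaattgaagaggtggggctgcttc
Cdkn1a inner start: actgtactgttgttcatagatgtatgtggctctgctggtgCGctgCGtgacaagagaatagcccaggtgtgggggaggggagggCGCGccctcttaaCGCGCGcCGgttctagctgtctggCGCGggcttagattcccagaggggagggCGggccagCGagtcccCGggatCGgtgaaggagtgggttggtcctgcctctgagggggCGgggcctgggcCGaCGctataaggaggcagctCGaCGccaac
Cdkn1b start: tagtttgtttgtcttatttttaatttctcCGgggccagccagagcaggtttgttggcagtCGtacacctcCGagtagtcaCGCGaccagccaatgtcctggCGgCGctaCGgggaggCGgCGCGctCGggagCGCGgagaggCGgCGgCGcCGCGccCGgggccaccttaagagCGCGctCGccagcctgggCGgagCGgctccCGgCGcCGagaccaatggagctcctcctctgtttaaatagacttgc
Among all promoter stretches, 27.8% held 15 CpG or more, and of these 11.1% overlapped an interval in all 12 libraries and 58.1% in none. GGGCGG, the GC box, was found on either strand of 7 of the 11 stretches, among them those of the Cdkn1a inner, Cdkn1b, Cdkn2d and Cdkn2a outer starts, and of 33.0% of all stretches. It was not in those of the Cdkn2a inner and Cdkn1a outer starts. CACGTG, the E box, was in none of the 11 stretches and in 6.02% of all.

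Counts on Cdkn1a were low, and the genotypes overlapped at each stage. The region (chr17:29090201-29097400) held 128.5, 143.6 and 139.5 normalised counts in E12.5 WT and 80.8, 79.2 and 132.5 in E12.5 KO. It held 62.3, 114.5 and 117.9 in E15.5 WT and 90.2, 96.3 and 72.2 in E15.5 KO. E12.5 KO 3 lay within the WT range, and the other E12.5 KO libraries lay below it. The log2 change in KO was -0.50 ± 0.41 (SE) at E12.5 (adjusted p 0.340, edgeR), with a sign that turned under other scalings, and -0.23 ± 0.27 at E15.5 (adjusted p 0.754, edgeR).

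Cdkn1c changed most between the stages. Its region (chr7:143452201-143471600, 19.4 kb) held 68.7, 214.3 and 151.4 normalised counts in E12.5 WT and 33.1, 101.1 and 87.6 in E12.5 KO. It held 515.4, 464.1 and 473.2 in E15.5 WT and 521.0, 645.5 and 500.1 in E15.5 KO. Every E15.5 library lay above every E12.5 library, and the genotypes overlapped at each stage. Deposited counts behind the lowest values were 31 in E12.5 WT 1 and 27 in E12.5 KO 1.

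The Cdkn1c domain was denser at E15.5, while its length overlapped between the stages. Intervals covered 5.8, 15.2 and 13.8 kb of the region in E12.5 WT and 5.8, 9.0 and 6.6 kb in E12.5 KO. They covered 11.2 to 16.0 kb in E15.5 WT and 14.6 to 17.4 kb in E15.5 KO. Per covered kb, the E12.5 libraries held 5.7 to 14.1 normalised counts and the E15.5 libraries 29.6 to 46.0, with no overlap. The stretch under an interval in all 6 libraries grew from 3.6 kb at E12.5 (chr7:143458201-143461800), about the gene body, to 10.8 kb at E15.5 (chr7:143455601-143466400).

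**Figure D2:**
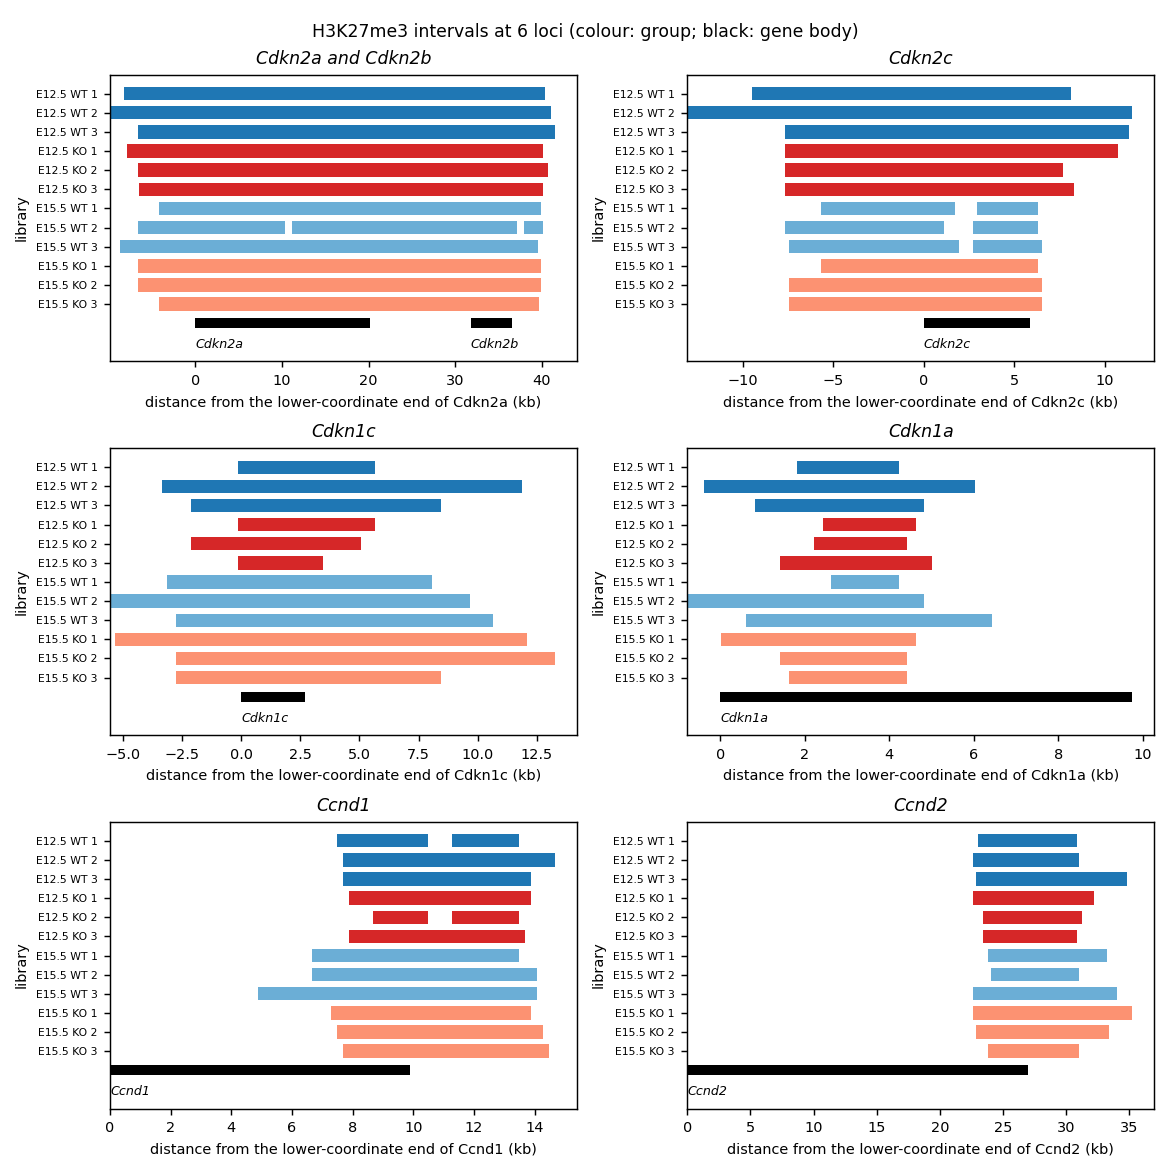
Extent of the deposited intervals that overlap each gene window, per library (rows, coloured by group), in kb from the lower-coordinate end of the gene, with gene bodies in black. Cdkn2a and Cdkn2b share 1 domain in all libraries except E15.5 WT 2, where gaps split it, Cdkn2c is split inside the gene in the 3 E15.5 WT libraries, and the marks on Ccnd1 and Ccnd2 lie at 1 end of the gene.

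Among the D-type cyclins, Ccnd1 and Ccnd2 carried the mark in every library at their higher-coordinate end, and Ccnd3 carried it in 2 libraries. Ccnd2 (chr6:127125162-127152188), a D cyclin of neural progenitors, had intervals over 17.1% to 21.5% of its window. The bases shared by all 12 libraries were 6.8 kb (chr6:127149201-127156000). Ccnd1 (chr7:144929931-144939831), a target of mitogen signalling, shared 4.0 kb within chr7:144938601-144943400. Ccnd3 (chr17:47505051-47599689) had an interval only in E12.5 WT 3 (13 counts over 1.0 kb) and in E15.5 KO 1 (12 counts over 4.4 kb). Per 200 bp they held 5.41 and 3.05 times the counts of the mean window. Those 2 intervals ranked 12326 of 13289 and 7090 of 7147 by score in their lists.

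Ccnd2 was the D cyclin with the most counts per covered kb, at 38.1 normalised counts against 26.3 for Ccnd1, as means over the 12 libraries. These values exceeded those of 68.2% and 51.9% of the regions shared by all libraries. The Ccnd2 region (chr6:127147801-127161200) held 279.2, 462.1 and 350.9 normalised counts in E12.5 WT and 155.5, 200.4 and 250 in E12.5 KO. It held 463.5, 572.6 and 528.7 in E15.5 WT and 432.2, 498.5 and 336.9 in E15.5 KO. All 3 KO libraries lay below all 3 WT libraries at E12.5, as in 36.6% of 2368 regions, and the genotypes overlapped at E15.5. Per covered kb the genotypes overlapped at E12.5, with 29.2 to 36.7 normalised counts in WT and 16.2 to 33.8 in KO.

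The Ccnd1 region (chr7:144934801-144944600) held 152.9, 194.2 and 155.2 normalised counts in E12.5 WT and 102.9, 84.0 and 145.3 in E12.5 KO. At E15.5 it held 200.6, 200.9 and 216.7 in WT and 209.6, 226.4 and 173.0 in KO. The KO libraries lay below the WT libraries at E12.5, as in 36.6% of 2368 regions, and around them at E15.5. Per covered kb the genotypes overlapped at E12.5, with 25.0 to 29.4 normalised counts in WT and 17.1 to 25.1 in KO. The interval was split in E12.5 WT 1 and E12.5 KO 2.

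**Figure D3:**
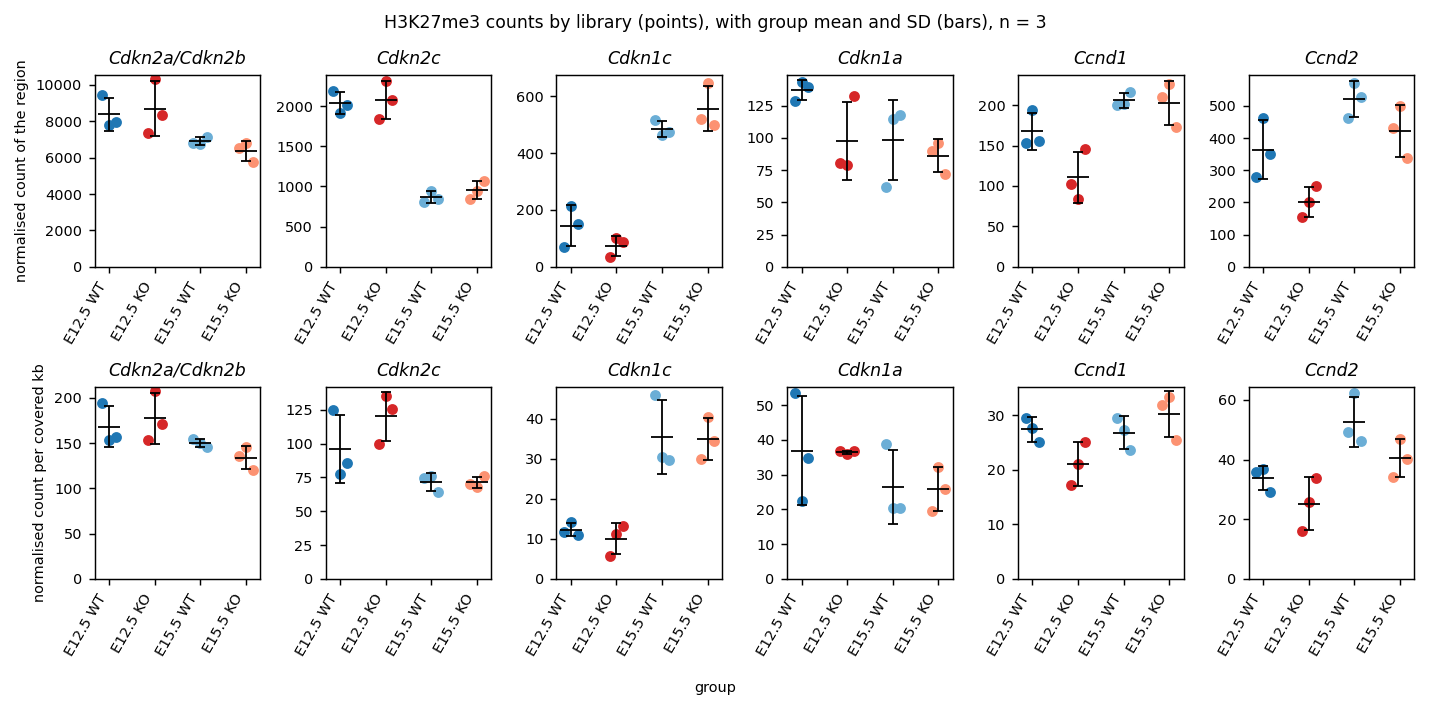
Normalised counts per region (upper row) and per covered kb (lower row, both linear axes from 0) for each library (points) with group mean and SD (bars, n = 3). Cdkn1c is above 464 in every E15.5 library and at most 214.3 at E12.5, Cdkn2c is lower at E15.5 on both scales, and in the upper row WT and KO overlap in all 6 regions at E15.5.

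The first comparison of the design sets Ezh2 KO against WT, and no region of these genes passed the test at either stage. At E12.5, 10.4% of 3243 regions were called lower in KO and 0.339% higher, against 0 of the 6 regions of these genes, which stand for 7 genes because Cdkn2a and Cdkn2b share one. The changes nearest the threshold were those of Cdkn1c, with a log2 change of -0.99 ± 0.41 (SE, adjusted p 0.0905, edgeR), and Ccnd2, with -0.86 ± 0.35 (adjusted p 0.0882, edgeR). Cdkn2a with Cdkn2b (0.05) and Cdkn2c (0.03) lay at the other end, above 92.1% and 91.5% of all regions. Both signs turned when 1 library was left out, and with DESeq2 the values were 0.62 and 0.60 (adjusted p 0.136 and 0.106). At an unadjusted p under 0.05, edgeR gave 2 of the 6 as lower (Cdkn1c and Ccnd2) and 0 as higher, against 32.3% and 1.05% of all regions. With TMM factors Ccnd2 was lower and Cdkn2c higher at that level (13.6% and 8.76% of all regions). DESeq2 called 0 of the 6; at the unadjusted level it gave 0 as lower and 2 as higher (Cdkn2a with Cdkn2b, and Cdkn2c), against 8.82% and 11.3%.

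The E12.5 changes have to be read against all regions, whose median log2 change was -0.56. Scaling by TMM factors moved that median to -0.04 and the share of calls that were lower from 96.8% to 60.3%. The median of the 6 regions was -0.55, and -0.03 with TMM factors. Ccnd1 and Ccnd2 were 2 regions whose KO libraries all lay below the WT libraries, which held for 36.6% of 2368 regions, and none of the 6 lay above, which held for 0.38%. Per covered kb, none of the 6 had genotypes apart in either direction, against 9.76% of regions with KO lower and 0.929% with KO higher. Ccnd2 passed the test at E12.5 without E12.5 KO 3 (log2 change -1.04, adjusted p 0.00851, edgeR) and Cdkn1c without E12.5 KO 3 (-1.13, 0.0162) or without E12.5 WT 1 (-1.298, 0.0277). Without E12.5 KO 3, however, 1542 of 3248 regions were called lower, around a median of -0.80. Without E12.5 WT 1, 468 of 3590 regions were called lower, around a median of -0.66.

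At E15.5 the genotypes were closer. Of 2781 regions, 1.73% were called lower in KO and 3.16% higher (35.3% of calls lower, and 42.7% with TMM factors), against 0 of the 6. The largest change was that of Ccnd2, at -0.32 ± 0.15 (SE, adjusted p 0.302, edgeR). Cdkn1c was at 0.20, Cdkn2c at 0.14, Ccnd1 at -0.03, Cdkn2a with Cdkn2b at -0.12 and Cdkn1a at -0.23, and the median of all regions was -0.02. No region of the 6 had genotypes apart in normalised counts, against 13.3% of regions with KO higher and 7.77% with KO lower. Per covered kb, the KO libraries of Cdkn2a with Cdkn2b lay below the WT libraries without overlap, as in 14.2% of regions. At an unadjusted p under 0.05, only Ccnd2 of the 6 was lower and none was higher with edgeR, with TMM factors and with DESeq2, and DESeq2 called 0. All regions lower and higher at that level came to 6.72% and 9.46% with edgeR, 9.64% and 10.9% with TMM factors and 7.26% and 7.7% with DESeq2.

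Over both stages, with stage in the fit, 5.87% of 2368 regions were called lower and 0.802% higher, and again 0 of the 6. Calls were lower in 88.0%, and in 50.7% with TMM factors. Ccnd2 had a log2 change of -0.58 ± 0.21 (SE, adjusted p 0.0836, edgeR), against a median of -0.29 over all regions. It passed with TMM factors (-0.32, adjusted p 0.0243, edgeR), with DESeq2 (-0.29, adjusted p 0.0295) and without E15.5 WT 1 (-0.65). Regions called lower came to 116 of 2368 with TMM factors, 139 of 2368 with DESeq2 and 220 of 2632 without E15.5 WT 1. At an unadjusted p under 0.05, Ccnd2 was the only one of the 6 lower by edgeR, and none was higher, against 22.5% and 2.32% of all regions. Cdkn2c was at 0.36 with TMM factors (unadjusted p 0.0175, adjusted p 0.120, edgeR) and at 0.38 with DESeq2 (unadjusted p 0.0240, adjusted p 0.135). Regions higher at the unadjusted level came to 231 of 2368 with TMM factors and 285 of 2368 with DESeq2. KO was lower than WT in Ccnd2 by group means at both stages. In the fits of each stage, the log2 change was below 0 in 90.7% of all regions at E12.5 and in 52.5% at E15.5. Covered shares of the gene windows gave 0.0% of 8010 genes past an adjusted p of 0.05 and 0.924% at an unadjusted exact permutation p under 0.05. The smallest p this test can give is 0.005, so an adjusted p under 0.05 needs many genes at that floor together. The lack of adjusted calls therefore says little about any single gene. Among the 10 genes Ccnd1 alone reached the unadjusted level, with a difference of -6.49 percentage points, KO minus WT (exact two-sided p 0.025, adjusted p 1.0).

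**Figure D4:**
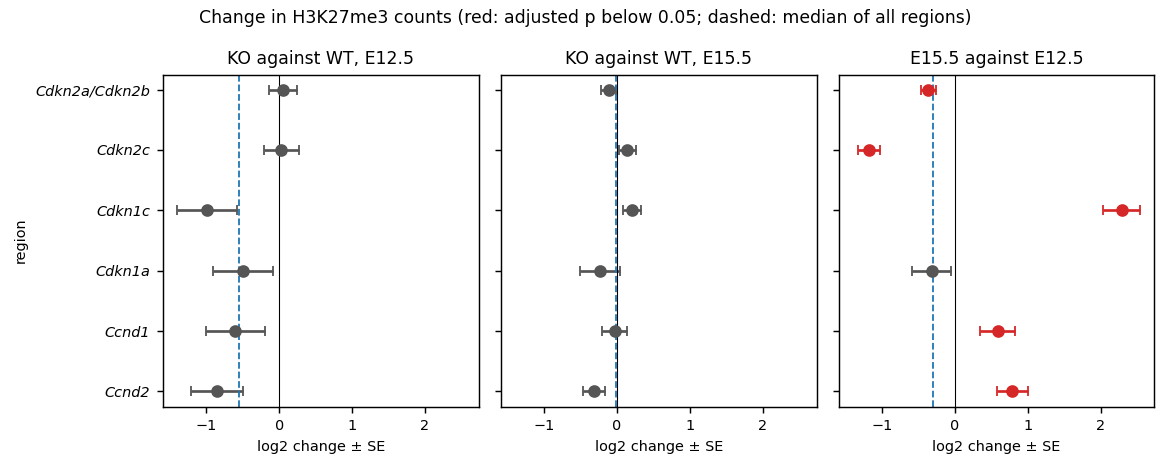
Log2 change ± SE (edgeR) of the 6 regions for KO against WT at E12.5, at E15.5 and for E15.5 against E12.5, with the median of all regions as a dashed line (at -0.56, -0.02 and -0.31). No region passes the threshold between genotypes, and 5 pass between stages, of which Cdkn1c is highest at 2.29 and Cdkn2c lowest at -1.18.

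The effect of genotype differed between the stages in 6.67% of 2368 regions, all with a higher effect at E15.5 and 0.0% with a lower one. Cdkn1c was the only one of the 6 called, with an effect 1.21 ± 0.40 higher at E15.5 on the log2 scale (SE, adjusted p 0.0470, edgeR). The median of all regions was 0.61, and 0.07 with TMM factors. With TMM factors the difference at Cdkn1c was 0.66 (adjusted p 0.314, edgeR) and with DESeq2 0.54 (adjusted p 0.513). It was called in 4 of 17 alternatives, with adjusted p between 0.00373 and 0.513. With 1 library left out the difference was 0.82 to 1.50, and it was called only without E12.5 WT 1, E12.5 KO 2 or E12.5 KO 3. In those fits 422 of 2411, 111 of 2373 and 1070 of 2368 regions were called with a higher effect at E15.5. The mean normalised count was 145 ± 73.0 in WT and 73.9 ± 36.0 in KO at E12.5 (SD, n = 3), and 484 ± 27.4 and 556 ± 78.6 at E15.5.

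Between the stages 5 of the 6 regions were called, with Cdkn1c, Ccnd2 and Ccnd1 higher at E15.5 and Cdkn2c and Cdkn2a with Cdkn2b lower. Over both genotypes, 30.1% of 2368 regions were called lower at E15.5 and 6.67% higher, around a median log2 change of -0.31, and the median of the 6 was 0.13. Calls were lower in 81.9%, and in 56.4% with TMM factors, which moved the median to -0.06. Cdkn1c rose by 2.29 ± 0.25 on the log2 scale (SE, adjusted p 5.54e-12, edgeR), a 4.88-fold increase that exceeded those of 99.8% of regions. Ccnd2 rose by 0.79 ± 0.21 (adjusted p 0.00235, edgeR), or 1.72-fold, above 96.2% of regions. Ccnd1 rose by 0.59 ± 0.24 (adjusted p 0.0492, edgeR), a call that held in 5 of 18 alternatives. The call held with TMM factors and with DESeq2, where 497 and 601 of 2368 regions were called higher at E15.5. With 1 library left out, it held only without E12.5 WT 2 or E12.5 KO 1. In those leave-out fits 204 of 2416 and 162 of 2459 regions were called higher at E15.5.

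Cdkn2c fell by 1.18 ± 0.15 on the log2 scale (SE, adjusted p 6.37e-10, edgeR), to 0.442 of the E12.5 level, and only 6.08% of regions fell further. Cdkn2a with Cdkn2b fell by 0.36 ± 0.10 (adjusted p 0.00338, edgeR), close to the median region. That call was lost with TMM factors (-0.16, adjusted p 0.471, edgeR) and with DESeq2 (-0.10, adjusted p 0.671). The log2 change of Cdkn1a was -0.32 ± 0.26 (adjusted p 0.342, edgeR). The calls of Cdkn1c and Cdkn2c held in all 17 alternatives that could be run for them, and that of Ccnd2 in all 18. The log2 change was 2.06 to 2.64 for Cdkn1c, -1.22 to -0.91 for Cdkn2c and 0.68 to 1.10 for Ccnd2.

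In total normalised counts, the direction between stages was the same in WT and KO for all 6 regions. Per covered kb it was not for Ccnd1, whose ratio, E15.5 over E12.5, was 0.978 in WT and 1.43 in KO. The share of all regions with the same direction in both genotypes is not given here. Over both genotypes, the log2 change between stages was below 0 in 73.3% of all regions. The ratio of mean normalised counts, E15.5 over E12.5, was 3.34 in WT and 7.51 in KO for Cdkn1c. For Cdkn2c it was 0.424 in WT and 0.459 in KO, and for Ccnd2 1.43 and 2.09. Without overlap, Cdkn1c, Ccnd1 and Ccnd2 were higher at E15.5 in WT (4.56% of regions were) and in KO (14.9%). Cdkn2a with Cdkn2b and Cdkn2c were lower in both, with Cdkn1a also lower in WT, against 53.9% of regions in WT and 12.6% in KO.

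Over all 6 libraries of a stage, Cdkn1c was higher without overlap at E15.5, as were 1.77% of regions, and Cdkn2a with Cdkn2b and Cdkn2c were lower, as were 8.15%. Per covered kb, Cdkn1c remained higher without overlap (1.39% of regions) and Cdkn2c lower (2.87%). Depth also differed between the stages, at 0.117 to 0.698 counts per window at E12.5 and 0.0751 to 0.346 at E15.5, and its part in these changes was not tested.

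Of 29 other cell cycle genes, chosen to cover the partners and targets of these proteins, 1 had an interval in all 12 libraries and 18 had none in any. These were 3.45% and 62.1% of the list, against 12.1% and 61.2% of all autosomal protein-coding genes. E2f8, a repressor of the E2F family, was the one marked throughout. The kinases that INK4 proteins bind were marked in most libraries, Cdk6 in 11 and Cdk4 in 10. Cdk1, Cdk2's partner Ccna2, Rb1, Trp53, Myc and Mycn were among those with none. Regions of 6 of the 29 could be tested at E12.5, of 2 at E15.5 and of 3 over both stages, and 0 were called in any comparison by edgeR, also with TMM factors. A tested region can touch a window in only some libraries, and those of E2f1 and E2f4 did so in 1 and 2 of the 12. At an unadjusted p under 0.05 by edgeR, the regions of Cdk6 and E2f1 were lower in KO at E12.5, as were 32.3% of all regions. With TMM factors only that of Cdk6 was lower, as were 13.6% of all regions. E2f8 reached that level between stages, where 37.5% of all regions were lower and 8.32% higher, with p 0.0438 by edgeR and 0.0659 with TMM factors. E2f8 had a log2 change of -0.12 ± 0.27 (SE) in KO over both stages (adjusted p 0.762, edgeR) and of -0.56 ± 0.28 between stages (adjusted p 0.0987, edgeR).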

How the data were processed

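H3K27me3 was measured by CUT&Tag in 3 WT and 3 KO libraries each at E12.5 and E15.5, grouped by genotype and stage in the labels. The submitters' processing notes name cutadapt, Bowtie2, SAMtools, Picard, deepTools and SICER and the builds GRCm38 and mm10; versions, roles and thresholds are not given in the sources used here. The authors deposited 1 interval list per library, on a grid of 200 bp windows and not pooled over replicates, with an unnormalized whole-number count per interval. The authors added a score to every interval. In single-window intervals this score equalled the negative natural log of a Poisson probability, which gave the mean count per window of each library, used here as its depth. That this is proportional to total reads is an assumption. The lists hold only intervals past the authors' threshold, so a gene without one is not known to be at 0.

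Genes came from RefSeq's table of GRCm38.p6, and coordinates count from 1. Overlapping autosomal intervals were merged over the libraries compared, and regions called in every one of them were tested with edgeR 4.0.16 (glmQLFit, glmQLFTest; R 4.3.3), library sizes proportional to depth, Benjamini-Hochberg adjustment over all regions and a threshold of 0.05. A region lost from any library thereby leaves the test. Covered shares of gene windows were compared between genotypes with an exact permutation test (two-sided), labels exchanged within stages (400 assignments, smallest p 0.005), adjusted over 8010 genes. An adjusted p under 0.05 would need many genes at that smallest p, so its absence says little about any single gene. Alternatives were TMM factors, DESeq2 1.42.0, the replicate number as a block, regions called in most libraries (4 of 6 or 8 of 12), regions with covered lengths within 1.5-fold of each other between groups, gene windows, other flanks and list lengths, and leaving out each library. The edgeR script and the permutation script were tested on simulated data.

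The 10 genes, the list of 29 other cell cycle genes, the markers and the tests were chosen with earlier results of these data known. All 10 genes are reported; of the other cell cycle genes, those with an interval in every library are given with values; and for Cdkn2d, marked in 10 libraries, the 3 genes of most similar covered share. Cdk4, Cdk6, Cdk1, Ccna2, Rb1, Trp53, Myc, Mycn, E2f1 and E2f4 were named after their values were seen. The result of the MGE marker list is not reported here.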

Additional observations from a re-analysis of the deposited data

Results flagged for a closer look

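The effect of Ezh2 KO on the Cdkn1c region differed between the stages in the interaction test. The log2 change in KO was -0.99 at E12.5 and 0.20 at E15.5 in the fits of each stage, and the difference in the joint fit was 1.21 ± 0.40 (SE, adjusted p 0.0470, edgeR). The KO mean was lower than the WT mean at E12.5 (73.9 against 145 normalised counts) and higher at E15.5 (556 against 484), with overlapping libraries at both stages. The difference was 0.66 with TMM factors (adjusted p 0.314, edgeR), and it was called in 4 of 17 alternatives. In the joint edgeR fit 6.67% of all regions were called in the same direction. The leave-out fits that called Cdkn1c called 422 of 2411 regions (without E12.5 WT 1), 111 of 2373 (without E12.5 KO 2) and 1070 of 2368 (without E12.5 KO 3).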

How the results depend on the processing

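Counts of called regions moved most with scaling, region choice and single libraries; the cause was not tested. With TMM factors, the regions lower and higher in KO came to 143 and 94 at E12.5, 85 lower at E15.5 and 113 higher over both stages. With TMM factors 5 regions had a lower and 46 a higher genotype effect at E15.5, and 497 rose between stages. With DESeq2 these counts were 143, 146, 79, 146, 14, 47 and 601 in the same order. In regions called in most libraries they were 84 lower and 0 higher at E12.5, 8 lower and 39 higher at E15.5, 31 lower and 2 higher over both stages, and 4 for a lower effect at E15.5. In regions of like covered length, 45 were lower and 5 higher at E12.5, 39 higher at E15.5, and 10 had a higher effect at E15.5. Gene windows gave 127 lower and 0 higher at E12.5, 2 lower and 11 higher at E15.5, 23 lower and 1 higher over both stages, 14 with a higher effect at E15.5 and 92 that rose between stages. Leaving out 1 library gave 96 (without E12.5 WT 3) to 1542 (without E12.5 KO 3) lower and 1 to 25 higher at E12.5, 19 to 76 lower and 47 to 88 higher at E15.5, 80 to 220 lower and 9 to 43 higher over both stages, 0 to 3 with a lower and 63 to 1070 (without E12.5 KO 3) with a higher effect, and 485 to 983 lower and 123 to 204 higher between stages.

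Deviations of same-numbered WT and KO libraries from their group means correlated at 0.224, 0.0336 and 0.113 at E12.5, and at -0.247, -0.0854 and -0.142 at E15.5. For libraries of different number the correlations ran from -0.211 to 0.203 at E12.5 and from -0.071 to 0.198 at E15.5. With 3 libraries per group these values cannot settle whether the numbers pair libraries, and the main fits did not pair them. With the replicate block, E12.5 calls came to 621 lower and 19 higher of 3243 regions, and 242 of 2368 regions had a higher effect at E15.5. Under the block Ccnd2 passed at E12.5 (-0.85) and Ccnd1 no longer passed between stages (0.59). For the stage comparison the number alone served as the block, since a block within stages leaves no stage effect to fit.

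Several values changed sign. Cdkn1a at E12.5, at -0.50 in the edgeR fit, was 0.0113 with TMM factors and 0.0739 with DESeq2. Cdkn2a with Cdkn2b over both stages was 0.23 and 0.25. The differences in genotype effect between the stages, E15.5 minus E12.5, turned to -0.43 and -0.50 for Cdkn2c, -0.27 and -0.36 for Cdkn1a and -0.0163 and -0.0868 for Ccnd2 in the same settings, and to -0.0501 for Ccnd1 with DESeq2. With 1 library left out, Cdkn2a with Cdkn2b ran from -0.0947 to 0.16 and Cdkn2c from -0.0607 to 0.11 at E12.5, Ccnd1 from -0.12 to 0.0786 at E15.5, and Cdkn2a with Cdkn2b from -0.11 to 0.00599 over both stages. Differences in covered share ran from -0.312 to 0.781 percentage points for Ccnd2, -15.7 to 0.628 for Cdkn2d and -0.167 to 0.937 for Ccnd3. The Cdkn2b share became -1.36 with 5000 bp flanks. The mean number of the 10 genes with an interval fell to 7 in E12.5 KO with an overlap of at least 1000 bp. It was 7.67 in E12.5 WT and in E15.5 KO in lists of equal length, and 7.67 and 7.33 in the upper part of each list by score; leaving out a library gave 7.5 to 8.5.

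Depth limits the low counts: Cdkn2d, Ccnd3 and the E12.5 values of Cdkn1c rest on few counts (Cdkn2d 8 to 87), and the lists carry no values below the authors' threshold.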
